A study of Mus musculus with 8 samples.

Results

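The 10 genes described here are Acly, Acaca, Fasn, Elovl6, Scd1, Scd2, Me1, Srebf1, Mlxipl and Thrsp, which encode enzymes and regulators of de novo lipogenesis. They were taken by symbol from the 32285 genes of the count tables, each symbol matched 1 gene, and all 10 were measured. Single-nucleus RNA-seq (snRNA-seq) libraries were made from cryopreserved whole hearts of 9-week-old male mice, with 1 library per mouse, from 4 wild-type (WT) mice (replicates 4686, 4909, 5355 and 5356) and 4 Tafazzin-knockout (Taz-KO) mice (replicates 4685, 4910, 5300 and 5301). Taz-KO mice are a model of Barth Syndrome, an X-linked mitochondrial disorder with cardiomyopathy, and Tafazzin (Taz) remodels cardiolipin, a phospholipid of the inner mitochondrial membrane. The strain and the deleted part of Taz are not given in the sources used here, no other allele or treatment is named for either group, and the labels name no animals shared between libraries. The question asked of these genes was whether their expression differed by genotype, and whether it did so in the same way in adipocytes, cardiomyocytes, fibroblasts and endothelial cells.

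De novo lipogenesis builds fatty acids from carbohydrate carbon. Citrate leaves the mitochondrion and is cleaved to cytosolic acetyl-CoA, which is carboxylated to malonyl-CoA and assembled into palmitate with reducing power from NADPH, and palmitate is then elongated and desaturated before it is stored as triglyceride. The pathway is prominent in liver and adipose tissue and is switched on by insulin through SREBP-1c and by glucose through ChREBP, whereas the adult heart mainly oxidizes fatty acids, and in cardiomyocytes malonyl-CoA is best known as a brake on the entry of fatty acids into mitochondria.

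In GENCODE vM21 on GRCm38, the build of the mm10 reference used for the counts, all 10 members are protein-coding genes. Of the genes that supply the carbon and build palmitate, Acly (ENSMUSG00000020917) lies at chr11:100476353-100528000 on the minus strand, Acaca (ENSMUSG00000020532) at chr11:84129672-84401651 on the plus strand and Fasn (ENSMUSG00000025153) at chr11:120805846-120824547 on the minus strand. Elovl6 (ENSMUSG00000041220) lies at chr3:129532355-129638495 on the plus strand, Scd1 (ENSMUSG00000037071) at chr19:44394455-44407879 on the minus strand, Scd2 (ENSMUSG00000025203) at chr19:44293674-44306864 on the plus strand and Me1 (ENSMUSG00000032418) at chr9:86581371-86695953 on the minus strand. The regulators are Srebf1 (ENSMUSG00000020538) at chr11:60199089-60222581 on the minus strand, Mlxipl (ENSMUSG00000005373) at chr5:135089890-135138382 on the plus strand and Thrsp (ENSMUSG00000035686) at chr7:97412938-97417730 on the minus strand. Acaca shares 19126 bases with Gm11437 and Srebf1 shares 109 bases with Rai1, both protein-coding genes of the opposite strand. Gm11437 stayed at or below 7.06 UMIs per 1000000 UMIs (CPM) in adipocytes, and Rai1 was at 117 to 179 CPM there. Short antisense genes with overlaps of 34 to 884 bases lie within Elovl6, Mlxipl and Me1, and were at or below 14.1 CPM in adipocytes.

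Promoters in RefSeq (GRCm38.p6) were found for 8 of the 10 members and not for Scd1 and Scd2. The 250 bases before the start of transcription are shown 5′ to 3′ on the strand of the gene for Acly and Fasn, the members with the largest rise in adipocytes, and for Mlxipl, the member that changed in opposite directions in adipocytes and cardiomyocytes. Capitals mark matches, on either strand, to 4 motifs: the sterol element TCACNCNA bound by SREBP proteins, the E-box CACGTG, the CCAAT box and the GC box GGGCGG. Of 32851 promoter windows of this length, 9.1% held the sterol element, 6% the E-box, 33.8% a CCAAT box and 32.7% a GC box.
Acly, chr11:100528001-100528250, minus strand: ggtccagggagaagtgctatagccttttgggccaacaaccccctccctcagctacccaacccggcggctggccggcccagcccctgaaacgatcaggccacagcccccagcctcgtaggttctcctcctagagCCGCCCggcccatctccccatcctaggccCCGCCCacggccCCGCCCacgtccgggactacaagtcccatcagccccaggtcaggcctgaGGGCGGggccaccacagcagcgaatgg
Fasn, chr11:120824548-120824797, minus strand: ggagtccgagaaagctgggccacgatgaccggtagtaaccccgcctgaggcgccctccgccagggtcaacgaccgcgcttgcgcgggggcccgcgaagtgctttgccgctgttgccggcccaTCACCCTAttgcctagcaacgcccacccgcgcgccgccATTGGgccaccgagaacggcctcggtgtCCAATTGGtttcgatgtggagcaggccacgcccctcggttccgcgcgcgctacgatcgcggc
Mlxipl, chr5:135089640-135089889, plus strand: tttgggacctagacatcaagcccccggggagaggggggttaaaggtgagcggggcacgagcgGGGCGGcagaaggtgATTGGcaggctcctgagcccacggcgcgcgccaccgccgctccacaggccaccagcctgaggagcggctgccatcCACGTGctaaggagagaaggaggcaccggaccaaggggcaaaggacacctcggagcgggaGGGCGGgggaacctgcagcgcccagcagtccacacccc
The Acly window held 4 GC boxes. The Fasn window held 1 sterol element, at 128 to 121 bases before the start, and 3 CCAAT boxes, 2 of which overlap each other. The Mlxipl window held 1 E-box, 1 CCAAT box and 2 GC boxes. A different RefSeq entry for Mlxipl, with its start further downstream, held 1 sterol element and is not printed here. Of the 6 member entries that start within 100 bases of the GENCODE start, 1 held the sterol element and 1 the E-box. These are matches of letters only.

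The libraries held 3492 to 36308 barcodes and 20025456 to 348080773 UMIs, and 2 of them stood apart, Taz-KO 4685 with 3492 barcodes and Taz-KO 5301 with 5571, against at least 21190 in each of the other 6. With 21190 to 36308 barcodes, these 6 each exceeded the rough input of nuclei per heart given in the paper. Whether each barcode kept here is a single nucleus was not tested. At most 10% of the nuclei of a library were removed as doublets, so doublets may remain, and the study kept fewer nuclei. After this removal, 151264 nuclei were kept and clustered, and 114713 fell in clusters named from marker genes as 11 cell types. Of these, 30790 nuclei were cardiomyocytes, 38170 fibroblasts, 21115 endothelial cells and 866 adipocytes. Any 2 libraries shared at most 294 barcodes, and the highest share, in another pair, was 1.045% of the smaller library. All adipocyte nuclei came from 1 cluster, in which Pck1, Car3, Plin1, Cidec and Ucp1 were among the leading genes. The defining pair of adipocyte genes was detected unevenly, with a Plin1 UMI in 66.67 to 99.27% and an Adipoq UMI in 28.57 to 74.45% of the adipocyte nuclei of a mouse. Adipocytes numbered 76, 137, 107 and 57 in WT 4686, 4909, 5355 and 5356, and 7, 311, 151 and 20 in Taz-KO 4685, 4910, 5300 and 5301. Taz-KO 4685, with fewer than 10 adipocyte nuclei, was left out of the tests in adipocytes, which compare 4 WT with 3 Taz-KO mice.

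Taz itself was lower in the Taz-KO mice in the 4 main cell types, but not absent. Cardiomyocyte nuclei held Taz at 53.2, 49.0, 54.3 and 48.6 CPM in WT 4686, 4909, 5355 and 5356, and at 42.4, 37.8, 28.3 and 31.4 CPM in Taz-KO 4685, 4910, 5300 and 5301. In adipocytes it was at 43.3 to 62.3 CPM in WT and 28.3 to 38.1 CPM in the 3 Taz-KO mice tested. It was at 34.4 to 37.6 and 19.1 to 33.8 CPM in fibroblasts and at 28.9 to 37.7 and 10.3 to 21.2 CPM in endothelial cells of WT and Taz-KO. The genotypes did not overlap in any of these 4, but did in lymphatic endothelial cells, at 28.9 to 39.2 CPM in WT and 17.7 to 75.3 CPM in Taz-KO, and in T-lymphocytes, at 18.9 to 33.1 and 9.63 to 86.1 CPM. Since the position of the deletion is not given, these reads check only that less of the 3′-tagged transcript was counted in the 4 main cell types.

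Within the WT hearts, adipocytes had the highest mean level of 9 of the 10 members among the 11 cell types, and Scd2 was the exception. Levels are CPM of the summed nuclei of a mouse, with mitochondrial genes left out, and are compared only within a gene. Thrsp, whose small nuclear protein is a lipogenic marker, stood at 106 ± 34.3 CPM (SD, n = 4) in WT adipocytes and 20.6 ± 4.50 CPM in endothelial cells, the next cell type, and the WT mice of the 2 types did not overlap. Acaca was at 890.4 ± 561 CPM in adipocytes and 152 ± 31.5 CPM (n = 2) in glial cells, the next type, again with no overlap. For Acly, Fasn, Elovl6, Scd1 and Srebf1 the adipocyte mean was 1.60 to 2.61 times that of glial cells, and the mice of these neighbours overlapped.

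Mlxipl and Me1 were the members with a sizeable level in cardiomyocytes as well. Mlxipl, which encodes the glucose-responsive factor ChREBP, was at 245 ± 63.6 CPM in WT adipocytes, 111 ± 16.4 CPM in cardiomyocytes and 22.5 ± 7.48 CPM (n = 2) in glial cells, and these 3 types, in this order, did not overlap. Me1, the cytosolic malic enzyme that makes NADPH, was at 98.7 ± 43.6 CPM in adipocytes and 97.7 ± 24.0 CPM in cardiomyocytes, which overlapped, and at 56.0 ± 5.24 CPM in fibroblasts. Scd2, a stearoyl-CoA desaturase, was highest in glial cells, at 63.6 ± 1.46 CPM (n = 2), and fibroblasts, at 47.4 ± 8.22 CPM, and was among the lowest in adipocytes, at 13.5 ± 5.19 CPM, and cardiomyocytes, at 13.2 ± 4.22 CPM. For 8 members, all but Me1 and Mlxipl, the cardiomyocyte mean was the lowest of the 11 types.

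In adipocytes, lipogenic transcripts were higher in Taz-KO than in WT. Of the 10 members, 9 rose at an adjusted p below 0.05 and none fell, nor did any have a negative log2 fold change, where 2.51% of the 12376 genes tested rose and 4.75% fell (edgeR quasi-likelihood test on counts summed per mouse, with Benjamini-Hochberg adjustment over all genes tested). Srebf1 did not pass. The log2 fold changes ran from 1.06 to 3.22 with a median of 1.96, against a median of 0.01 over all genes tested. The rise of Acly, Fasn and Elovl6 in adipocytes of these mice was already known when the members were chosen.

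Among the genes of the path from citrate to palmitate, Acly and Fasn had the largest log2 fold changes of the 10 members. Acly, ATP citrate lyase, which makes cytosolic acetyl-CoA, was at 161, 56.8, 38.3 and 104 CPM in WT 4686, 4909, 5355 and 5356 and at 333, 1399 and 756 CPM in Taz-KO 4910, 5300 and 5301. The lowest Taz-KO mouse was thus above the highest WT mouse, Taz-KO 5300 stood well above the other 2, and the log2 fold change was 3.22 ± 0.58 (SE), with an adjusted p of 0.0147. Fasn, fatty acid synthase, was at 95.6, 41.7, 11.9 and 94.9 CPM in the same WT mice, against 264, 668 and 431 CPM for Taz-KO. The genotypes did not overlap, with a log2 fold change of 2.99 ± 0.62 and an adjusted p of 0.0251. Acaca, acetyl-CoA carboxylase alpha, which makes malonyl-CoA for synthesis, was at 1205, 499, 342 and 1516 CPM in WT and 3252, 4082 and 3384 CPM in Taz-KO. The WT mice spread widely and the 3 Taz-KO mice lay above them, with a log2 fold change of 1.99 ± 0.47 and an adjusted p of 0.0343. This call was kept in 6 of the 18 alternatives run in adipocytes, with adjusted p values of up to 0.201.

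Genes that lengthen and desaturate the product, and Me1, rose as well. Elovl6, the elongase that takes palmitate to stearate, was at 154, 96.9, 194 and 189.8 CPM in WT and 681, 1126 and 1052 CPM in Taz-KO. It was the member with the smallest error relative to its change, at a log2 fold change of 2.59 ± 0.28 and an adjusted p of 0.00194, and even the lowest Taz-KO mouse was far above all 4 WT mice. Scd1, the main stearoyl-CoA desaturase of adipose tissue, was at 282, 143, 82.0 and 128 CPM in WT and 693, 605 and 424 CPM in Taz-KO, with a log2 fold change of 1.88 ± 0.36 and an adjusted p of 0.0150. WT 4686 was the highest WT mouse for Scd1, as it was for Acly, and the genotypes did not overlap. Me1 was at 85.4, 79.0, 67.1 and 163 CPM in WT and 229, 644 and 509 CPM in Taz-KO, with a log2 fold change of 2.27 ± 0.40 and an adjusted p of 0.0124. Scd2, the desaturase isoform best known from the brain, stayed low, at 17.6, 18.3, 9.06 and 8.90 CPM in WT and 32.0, 60.9 and 28.3 CPM in Taz-KO. It rose with a log2 fold change of 1.57 ± 0.35 and an adjusted p of 0.0218, and its genotypes did not overlap either. The lowest Taz-KO mouse, 5301, held 4 Scd2 UMIs and WT 5356 held 3, so the lack of overlap rests on few UMIs. In whole libraries Scd2 was at 8.88 to 63.5 CPM, which spans its adipocyte levels. Adipocytes were below their library in each WT mouse and above it in each Taz-KO mouse tested. The share of background RNA in these counts was not measured.

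Among the regulators, Thrsp and Mlxipl rose and Srebf1 did not pass the test. Thrsp was at 129.8, 118, 55.2 and 122 CPM in WT and 276, 526 and 396 CPM in Taz-KO, with a log2 fold change of 1.93 ± 0.31 and an adjusted p of 0.00825. Mlxipl was at 274, 219, 171 and 317 CPM in WT and 468, 755 and 607 CPM in Taz-KO, with a log2 fold change of 1.32 ± 0.26 and an adjusted p of 0.0140. Both separated the genotypes. Srebf1, which encodes SREBP-1a and SREBP-1c, was at 62.0, 39.7, 16.9 and 56.4 CPM in WT and 68.2, 127 and 42.4 CPM in Taz-KO. Here the lowest Taz-KO mouse lay inside the WT range, and the log2 fold change of 1.06 ± 0.44 had an adjusted p of 0.17. In all, 9 members had Taz-KO mice above every WT mouse, while 7.32% of genes did so in adipocytes.

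**Figure D1:**
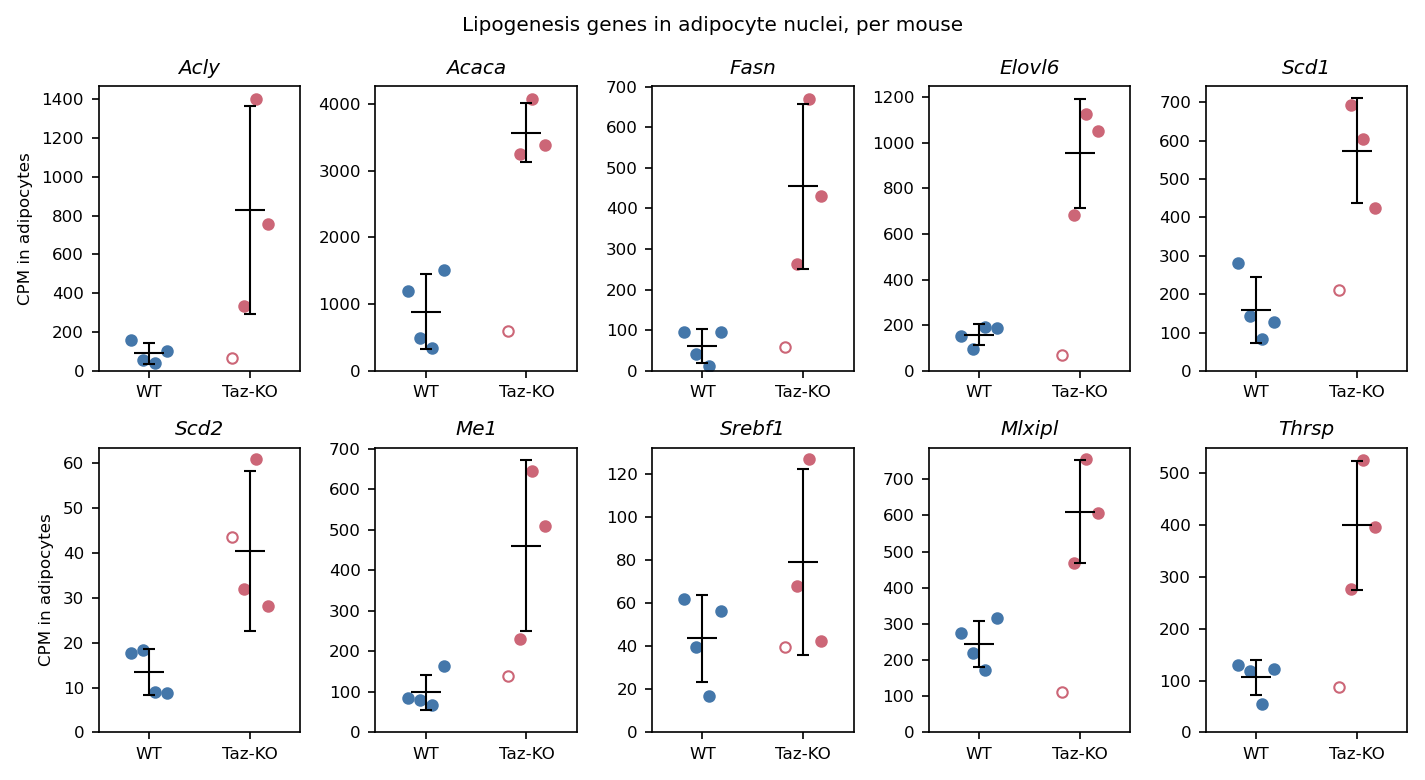
Level in adipocyte nuclei, in CPM of the summed nuclei of a mouse, for the 10 members in WT (blue) and Taz-KO (red) mice, 1 point per mouse. Horizontal bars and whiskers are the mean and SD of the 4 WT and 3 Taz-KO mice tested, and the open circle is Taz-KO 4685, whose 7 nuclei were not tested. The 3 Taz-KO mice lie above the 4 WT mice in 9 of the 10 panels, all but Srebf1.

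The open circle in that plot bears on the count. The 7 adipocyte nuclei of Taz-KO 4685 were at 67.4 CPM for Acly and 59.4 CPM for Fasn, within the WT range, and at 71.3 CPM for Elovl6, below it, and their summed level of the 6 adipocyte markers was 646 CPM, against 1728 CPM or more in every other mouse. With these nuclei included, 1 member was called, Scd2, where 0.549% of all genes were called higher. Without Taz-KO 5300, 1 member was called, Elovl6, where 0.26% of genes were. Without Taz-KO 4910 there were 6 members and 0.528% of genes, and without Taz-KO 5301 there were 7 members and 5.42% of genes. The count was 4 with only nuclei that held both a Plin1 and an Adipoq UMI, where 0.487% of genes passed, and 5 with doublets kept, where 1.28% did. All 10 log2 fold changes stayed positive in each of the 18 alternatives run in adipocytes. Elovl6 and Thrsp were called in 16 of these, Acly and Me1 in 15, Scd1 in 14, Mlxipl in 12, Fasn in 11, Scd2 in 10, Acaca in 6 and Srebf1 in none.

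The composition of the adipocyte nuclei differed by genotype beside these genes. The summed level of the 6 adipocyte markers, of which none was at 0 in any mouse, was 1728 to 3453 CPM in WT and 4196 to 6654 CPM in the 3 Taz-KO mice, and 1 of the 6 was called, Pparg, the master factor of adipocyte identity (log2 fold change 1.43 ± 0.26, adjusted p 0.0116). Pparg gave 30.4 to 59.6% of the marker UMIs in WT and 50.8 to 62.2% in Taz-KO, and the sum of the other 5 markers overlapped, at 815 to 2403 CPM in WT and 1775 to 2543 CPM in Taz-KO. The 6 cardiomyocyte markers summed to 11742 to 15201 CPM in the adipocyte nuclei of WT mice and to 1293 to 8629 CPM in those of Taz-KO mice, against 35017 CPM or more in cardiomyocytes, and 1 of the 6 was called lower, Ryr2. Of the 7 fibroblast markers, 3 were called lower, of the 6 macrophage markers, 2, and of the 2 B-lymphocyte markers tested, 1. Of the 5 mesothelial and 3 smooth muscle markers tested, 1 each was called higher. Among all genes tested in adipocytes, 4.75% were called lower and 2.51% higher. The 5 thermogenic genes summed to 522 to 1326 CPM in WT and 1397 to 2310 CPM in Taz-KO, and 1 was called, Cidea. Ucp1 had a log2 fold change of 0.82 ± 0.67 and an adjusted p of 0.486. Some of these shifts were shared by sign with the other 3 main cell types. All 6 cardiomyocyte markers were lower in Taz-KO in each of the 4 types. Smooth muscle markers tested were all higher in each, and mesothelial markers too, but for 1 in adipocytes. Macrophage markers were mixed, with 4 of 6 higher in endothelial cells and 1 of 6 in adipocytes. The part of these differences in the rise of the lipogenic genes was not tested, but the values were also set against the adipocyte markers of the same nuclei.

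Relative to the sum of the 6 adipocyte markers, Pparg included, the genotypes were apart for 5 members. Acly was at 2.16 to 7.30 UMIs per 100 UMIs of the 6 markers in WT and 7.94 to 29.8 in Taz-KO. Elovl6 was at 3.69 to 11.2 in WT and 15.8 to 24.0 in Taz-KO, and Fasn at 0.69 to 4.33 and 6.28 to 14.3. These 3, with Me1 and Thrsp, did not overlap, where 0.145% of all genes were higher in Taz-KO without overlap by this ratio and 43.2% lower. For Thrsp the gap was small, from 5.88 in the highest WT mouse to 5.94 in the lowest Taz-KO mouse. Acaca, Scd1, Scd2, Srebf1 and Mlxipl overlapped, with Mlxipl at 8.34 to 12.4 in WT and 9.13 to 16.1 in Taz-KO. These ranges leave out Taz-KO 4685, whose 7 nuclei were above every WT mouse by this ratio for all members but Elovl6, with Acly at 10.4, Fasn at 9.20, Me1 at 21.5 and Thrsp at 13.5. Its marker sum was the lowest of all mice, at 432 CPM without Pparg, against 815 CPM or more in the others. In CPM, this mouse was above every WT mouse for Scd2 only. For Elovl6 that mouse was at 11.04, inside the WT range (up to 11.23), so with it the genotypes overlapped. With Pparg left out of the marker sum, a choice made after seeing the data, 3 members did not overlap, Fasn, Elovl6 and Me1, where 0.145% of all genes were higher without overlap. Acly then overlapped, at 4.07 to 18.1 in WT and 16.1 to 78.8 in Taz-KO, and so did Thrsp, at 5.06 to 14.6 and 13.4 to 29.6.

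**Figure D2:**
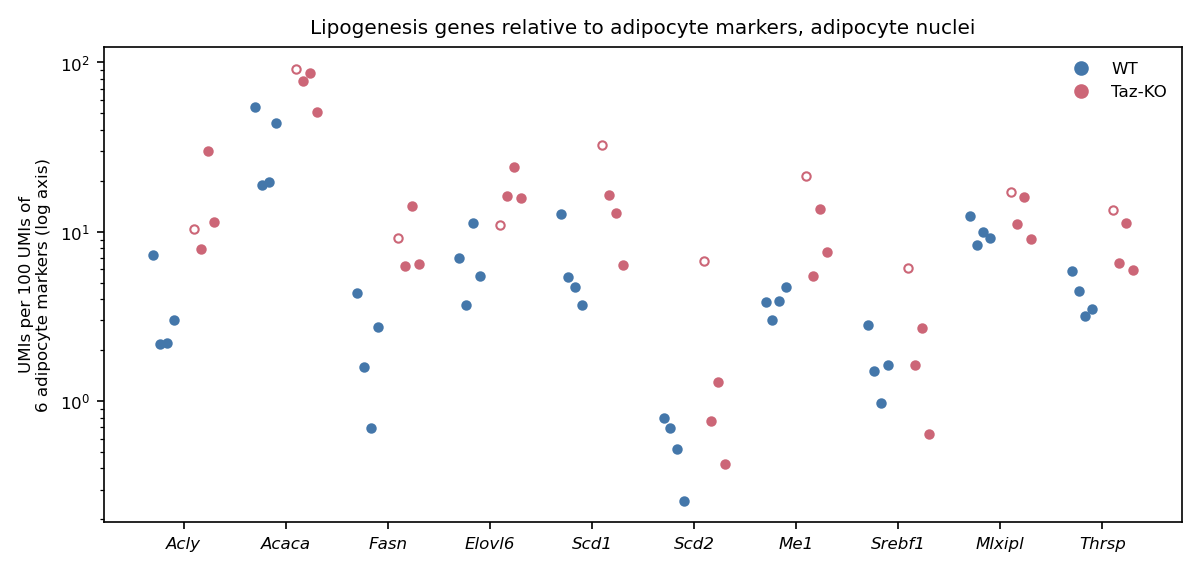
UMIs of each member per 100 UMIs of the 6 adipocyte markers Plin1, Adipoq, Cidec, Lipe, Plin4 and Pparg in the adipocyte nuclei of each mouse, on a log axis, with WT in blue and Taz-KO in red. The open circles are Taz-KO 4685 with 7 nuclei. The filled points of the genotypes are apart for Acly, Elovl6, Fasn, Me1 and Thrsp, and overlap for the other 5 members.

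In cardiomyocytes, Mlxipl fell and no member rose. Mlxipl was at 133, 93.4, 108 and 110.4 CPM in WT 4686, 4909, 5355 and 5356 and at 49.1, 42.9, 45.5 and 58.6 CPM in Taz-KO 4685, 4910, 5300 and 5301. The 4 Taz-KO mice lay close together, and each was well below the lowest WT mouse, as were 6.83% of genes lower in Taz-KO without overlap. The log2 fold change was -1.30 ± 0.21, a level 0.405 times that of WT, with an adjusted p of 0.002. This was 1 of 10 members called lower, where 6.47% of the 18555 genes tested in cardiomyocytes were lower and 8.52% higher. Mlxipl was called lower in all 19 alternatives, with log2 fold changes from -1.55 to -1.13, including the largest cardiomyocyte cluster taken alone.

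The other 9 members gave no call in cardiomyocytes, with log2 fold changes from -0.36 to 0.77 and a median over the 10 members of -0.15, against -0.01 over all genes. Elovl6 was very low there, at 2.99, 3.38, 5.31 and 2.09 CPM in WT and 7.03, 5.86, 9.88 and 3.10 CPM in Taz-KO, and the genotypes overlapped through Taz-KO 5301. Its log2 fold change of 0.77 ± 0.31 had an adjusted p of 0.122, and it was the 1 member higher at an unadjusted p below 0.05, a limit that 2 of the 10 members and 5258 of 18555 genes passed in either direction. DESeq2 likewise called no member higher. Acaca was at 51.5, 52.1, 38.6 and 51.0 CPM in WT and 74.8, 66.0, 54.9 and 62.5 CPM in Taz-KO. These values did not overlap, as in 15.6% of genes higher in Taz-KO cardiomyocytes, but the log2 fold change of 0.29 ± 0.19 had an adjusted p of 0.364. Mlxipl was the only member called in both adipocytes and cardiomyocytes, in opposite directions, and the share of all genes called so is not given here. The cardiomyocytes of the 2 genotypes were spread differently over clusters, with 53.27% of WT and 30.08% of Taz-KO nuclei in the largest cluster, and 3.796% and 19.59% in another.

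**Figure D3:**
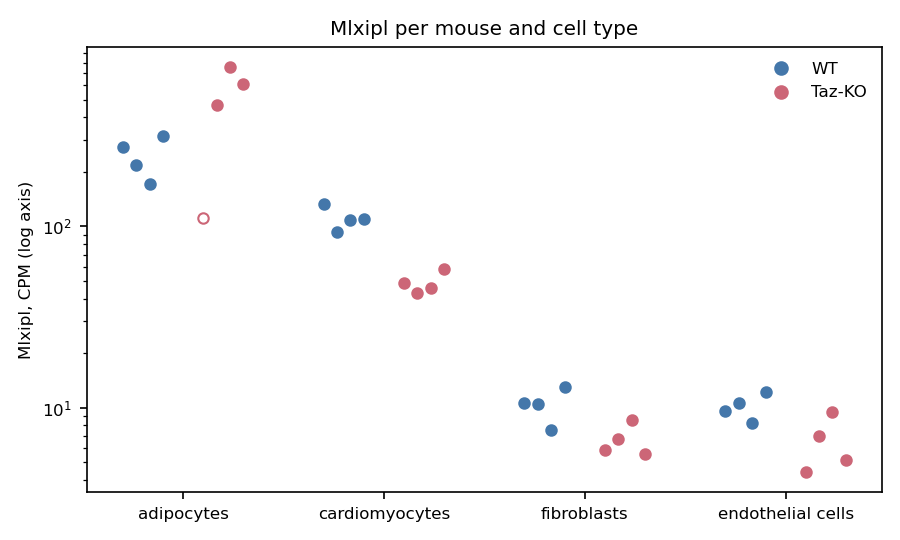
Mlxipl level per mouse, in CPM on a log axis, in the nuclei of 4 cell types, with WT in blue and Taz-KO in red, 1 point per mouse. The open circle is Taz-KO 4685, with 7 adipocyte nuclei, which lies below the WT mice. In cardiomyocytes the 4 Taz-KO mice, at 42.9 to 58.6 CPM, lie below the 4 WT mice, at 93.4 to 133 CPM.

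In fibroblasts and endothelial cells no member was called by edgeR or by DESeq2, where 0.406% of 17737 genes in fibroblasts and 0.445% of 16173 genes in endothelial cells passed in either direction with edgeR, and 1.7% and 1.47% with DESeq2. At an unadjusted p below 0.05, Mlxipl was the 1 member to pass in each, among 1733 genes in fibroblasts and 1279 in endothelial cells. In fibroblasts Mlxipl was at 10.6, 10.5, 7.50 and 13 CPM in WT and 5.87, 6.75, 8.59 and 5.56 CPM in Taz-KO, with a log2 fold change of -0.67 ± 0.23 and an adjusted p of 0.328. With 20% of the counts subtracted as ambient RNA that fold change turned to 0.70. In endothelial cells it was at 9.56, 10.6, 8.27 and 12.3 CPM in WT and 4.41, 6.98, 9.42 and 5.16 CPM in Taz-KO, with a log2 fold change of -0.60 ± 0.25 and an adjusted p of 0.578. After the same subtraction, Mlxipl no longer passed the filter on low counts in endothelial cells. The genotypes overlapped in both, through Taz-KO 5300. The 6 cardiomyocyte markers summed to 6054 to 11276 CPM in WT and 2665 to 10680 CPM in Taz-KO fibroblasts, and to 8653 to 13999 CPM and 4355 to 13028 CPM in endothelial cells.

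The remaining 9 members lay between -0.09 and 0.45 on the log2 scale in fibroblasts and between -0.16 and 0.76 in endothelial cells. Fasn was the highest of them in both, at 0.45 ± 0.43 and 0.76 ± 0.44, and its Taz-KO mice spanned 5.56 to 26.7 CPM in fibroblasts and 6.19 to 30.6 CPM in endothelial cells, overlapping the WT mice in both. Elovl6 in endothelial cells, at 10.2 to 14.2 CPM in WT and 14.9 to 18.6 CPM in Taz-KO, was the 1 member without overlap there, as were 3.31% of genes higher in Taz-KO, and its log2 fold change of 0.37 ± 0.18 had an adjusted p of 0.687. In macrophages, pericytes, mesothelial cells, smooth muscle cells, lymphatic endothelial cells and T-lymphocytes no member was called, out of 10 tested in 4 of these types, 5 in smooth muscle cells and 2 in T-lymphocytes. In these types, in the order given, 0.249, 0.148, 0.0735, 0.138, 0.166 and 0% of genes passed.

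**Figure D4:**
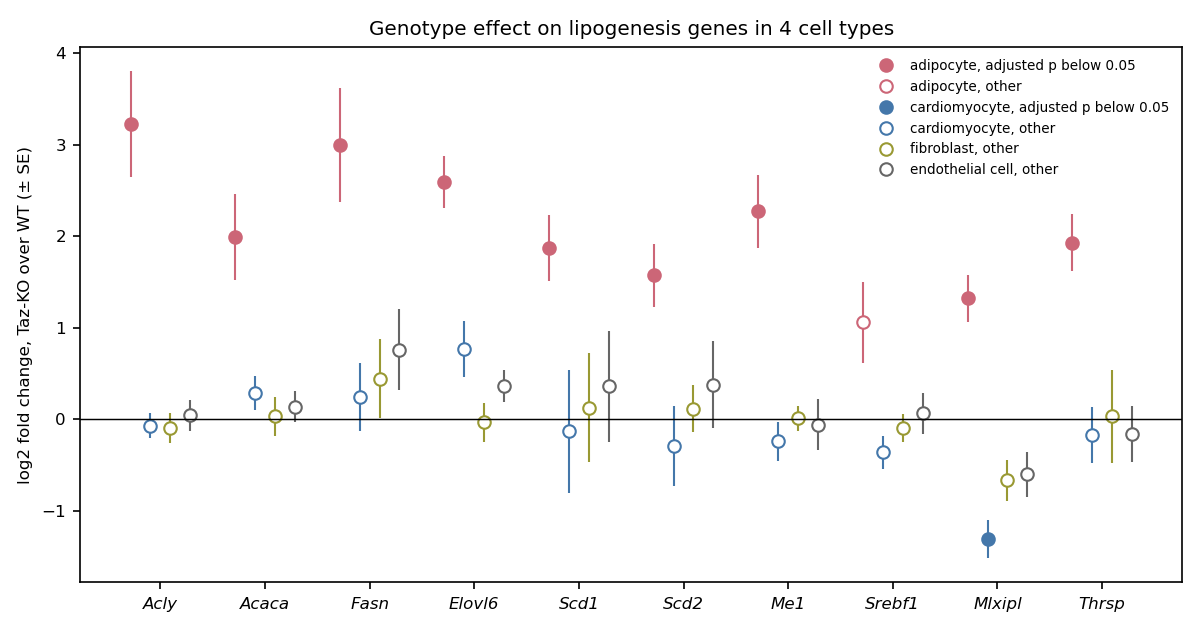
Log2 fold change of Taz-KO over WT, with its SE, for each member in adipocytes (red), cardiomyocytes (blue), fibroblasts (olive) and endothelial cells (grey). Filled points have an adjusted p below 0.05. Adipocyte points lie between 1.06 and 3.22, and Mlxipl in cardiomyocytes, at -1.30, is the filled point below 0.

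The genotype effect in adipocytes was then compared with that in each other cell type in the same mice, in a model with the mouse as a term and an interaction of cell type and genotype. Against cardiomyocytes, 7 of 10 members had a higher effect in adipocytes, where 3.73% of 15970 genes did. Among these, the rise of Acly and Elovl6 in adipocytes of these mice was known when the members were chosen. The count is therefore not independent of the choice of members. The difference was 2.55 ± 0.27 for Mlxipl, with an adjusted p of 3.44e-05, and 3.13 ± 0.62 for Acly, with an adjusted p of 0.0228, on the log2 scale. Acaca (1.92 ± 0.38), Elovl6 (1.75 ± 0.34), Scd2 (1.84 ± 0.33), Me1 (2.23 ± 0.40) and Thrsp (1.87 ± 0.44) also passed. For Scd2, the adipocyte sums held only 3 UMIs in WT 5356 and 4 UMIs in Taz-KO 5301, which limits each comparison with adipocytes. Of 9 alternatives, the difference passed in 9 for Mlxipl and Me1, in 8 for Elovl6 and Scd2, in 7 for Acly and Acaca and in 4 for Thrsp. Fasn, at 2.72 ± 0.86, had an adjusted p of 0.107, Srebf1 1.31 ± 0.39 and 0.0516, and Scd1 1.93 ± 0.81 and 0.196.

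Against fibroblasts the effect was higher in adipocytes for 6 members, where 1.04% of 13924 genes were, and against endothelial cells for 6, where 1.05% of 13933 genes were. They were Acly, Acaca, Elovl6, Scd2, Me1 and Mlxipl in both comparisons, which share the adipocyte sums. Here too Acly and Elovl6 were already known to rise in adipocytes of these mice. Of 9 alternatives, the difference from fibroblasts passed in 8 for Elovl6, 7 for Mlxipl, 4 for Acaca and Scd2 and 3 for Acly and Me1. The difference from endothelial cells passed in 6 for Elovl6, 4 for Acly and Mlxipl, 3 for Scd2 and 2 for Acaca and Me1. Elovl6 differed from fibroblasts by 2.60 ± 0.23 with an adjusted p of 0.000138 and from endothelial cells by 2.20 ± 0.27 with an adjusted p of 0.0085. Without the mouse term, the numbers of members that passed fell to 3 against cardiomyocytes and to 0 against fibroblasts and against endothelial cells. With no filter on low counts all 10 members passed in each, where 4.25, 3.18 and 2.97% of genes did. Without Taz-KO 5300 they were 4, 1 and 0, and without WT 4909 they were 6, 3 and 0. For the fits without the mouse term or without 1 mouse, the share of all genes that passed is not given here. A fall in these counts thus cannot be told from a general loss of calls.

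The share of nuclei with at least 1 UMI, after thinning each nucleus with 1000 UMIs or more to that number, is given as a description, since it was computed for the members only. In Taz-KO mice 2 adipocyte, 119 cardiomyocyte, 49 endothelial and 9 fibroblast nuclei were shallower and were left out, and the adipocyte shares of Taz-KO 5301 rest on 18 nuclei. In adipocytes, 0.935 to 14.5% of the nuclei of a WT mouse and 22.2 to 56.3% of those of a Taz-KO mouse held an Acly UMI, while in cardiomyocytes, fibroblasts and endothelial cells the share was 1.89 to 5.39% in either genotype. For Elovl6 the shares in adipocytes were 7.02 to 19.7% in WT and 31.2 to 50% in Taz-KO, and at most 3.16% in the other 3 types. A Mlxipl UMI was found in 8.90 to 11.3% of WT and 3.73 to 5.35% of Taz-KO cardiomyocyte nuclei, against 0 to 1.60% in fibroblasts and endothelial cells. The genotypes did not overlap in that share in cardiomyocytes, whereas in adipocytes the Mlxipl share was 19.3 to 29.9% in WT and 27.8 to 47.0% in Taz-KO. Before thinning, the Acly share in adipocytes was 33.3 to 69.7% in WT and 59.8 to 80% in Taz-KO, which overlapped, at median depths per mouse of 4195 to 13733.5 UMIs in WT and 4623 to 6725.5 UMIs in Taz-KO.

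Adipocytes were few, yet they held a sizeable part of some of these transcripts. The median share of adipocytes among the kept nuclei was 0.449% for WT and 0.550% for Taz-KO. Of all Elovl6 UMIs in the kept nuclei of a mouse, adipocytes held 10.8% (median of WT) or 33.7% (median of Taz-KO). For Acly these medians were 2.27% and 15.9%, for Fasn 4.88% and 16.9%, and for Thrsp 9.02% and 19.8%. Taz-KO 4685, with 7 adipocytes, gave an Acly share of 2.35%, inside the WT range of 1.21 to 6.01%. Its shares of 6.14% for Elovl6 and 5.34% for Fasn also lay inside the WT ranges, which were 4.18 to 20.6% and 3.03 to 8.26%.

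A wider list of 42 genes around the pathway, of which 41 were tested, was described in the same way. In adipocytes DESeq2 called 12 of the 41 in either direction. Of 22433 genes with a count it called 1.06% higher, and the share called in either direction is not given here. The count of 12 thus cannot be set against it. With edgeR 8 rose and none fell, where 2.51% of all genes rose and 4.75% fell, and the median log2 fold change was 0.52, against 0.01 over all genes. They were Acss2, which makes acetyl-CoA from acetate, and Slc25a1, the mitochondrial citrate carrier (1.83 ± 0.33 and 1.79 ± 0.42), Tkt and Pgd of the pentose phosphate pathway (1.54 ± 0.27 and 1.27 ± 0.27), Hsd17b12 of the elongation cycle (1.11 ± 0.21), and Taldo1, Lpin1 and Gpam, which lie outside the rule for named genes and were named after their values were seen. Slc25a1 was low, and its genotypes overlapped, at 4.94 to 20.8 CPM in WT and 7.06 to 33.7 CPM in Taz-KO. Of the 41 genes, 35 had positive log2 fold changes, against 50.7% of all genes tested. All 5 genes of acetyl-CoA and citrate supply and all 5 of NADPH supply were among them, and 2 and 3 of them passed. A positive sign was not particular to these 2 groups. It also held for all 5 genes of triglyceride synthesis, of which 2 passed, and all 5 of insulin signal and glucose entry, of which 0 passed. None of the 12 regulators passed with edgeR, and 1 did with DESeq2. At an unadjusted p below 0.05 in edgeR there were 3 regulators, and 3124 of the 12376 genes tested. Insig1, a sterol-responsive brake on SREBP processing, was at 35.3, 62.0, 19.4 and 59.3 CPM in WT and 74.3, 279.8 and 113 CPM in Taz-KO, with a log2 fold change of 1.92 ± 0.51 and an adjusted p of 0.051. The study in these mice had already named Insig1 among the genes higher in adipocytes, so its value is not independent evidence.

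In cardiomyocytes 6 of the 41 genes fell and none rose, where 6.47% of all genes fell and 8.52% rose, and the median was -0.19, against -0.01 over all genes. Lpin1, a phosphatidate phosphatase, changed most, from 187 to 348 CPM in WT to 82.6 to 107 CPM in Taz-KO (-1.61 ± 0.24, adjusted p 0.00131). Both genes that set malonyl-CoA at the mitochondrion fell, Acacb, which makes it (-0.87 ± 0.24, adjusted p 0.0314), and Mlycd, which breaks it down (-1.15 ± 0.24, adjusted p 0.00796). Agpat2 and Gpam of glycerolipid synthesis fell by 1.05 and 0.82 on the log2 scale, and Slc2a4, the insulin-responsive glucose transporter, by 0.88, and Gpam was again named after its value was seen. Lpin1 and Gpam were thus called higher in adipocytes and lower in cardiomyocytes, as Mlxipl was. The share of all genes called in these opposite directions is not given here, so this count cannot be set against it. Acacb was among the genes singled out by the study in these mice, so its fall is not independent evidence. In fibroblasts 0 of the 41 genes were called by edgeR and 1 by DESeq2, with 3 at an unadjusted p below 0.05, and in endothelial cells 0, 1 and 2. Of all genes, 0.406% were called by edgeR and 1.7% by DESeq2 in fibroblasts, and 0.445% and 1.47% in endothelial cells, so these counts are near the share over all genes. The gene called by DESeq2 was Lpin1 in both, lower in Taz-KO.

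Across the 31 sums of the 4 cell types per mouse, the genes most like Acly were ranked by Pearson's r of log2(CPM + 1) among 10193 genes with a mean of at least 10 CPM in adipocytes. The 5 nearest were Fasn (r = 0.949), Ttc25 (0.940), Mfsd2a (0.937), Pank3 (0.924) and Insig1 (0.921). Thrsp, Elovl6, Acaca and Srebf1 ranked 15, 16, 17 and 21, Scd1 ranked 90, Me1 204, Mlxipl 844 and Scd2 3482. The sums share libraries and cell types, so these values describe the likeness of the profiles only. Ttc25, a gene of motile cilia, lies at chr11:100545607-100572568 on the plus strand, 17606 bases from Acly, which is on the minus strand.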

How the data were processed

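Single-nucleus libraries (10x 3′ v3.1) of 8 hearts were compared, 4 per genotype. The authors aligned the reads, introns included, to mm10 with Cell Ranger 6.0.1 (the submitters' processing notes), and the deposited values are raw UMI counts per gene and barcode, to which no ambient RNA correction had been applied. Libraries held 20025456 to 348080773 UMIs. No cell annotation was used, so cell types were rebuilt and may differ from those of the study, whose nuclei are fewer than the barcodes here.

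Barcodes with at least 800 UMIs outside mitochondrial genes and 250 genes were kept (167495 of 169193). Nuclei were scored against simulated doublets, and 0.8% per 1000 nuclei, at most 10%, were removed (16231). The limit of 10% was reached in the larger libraries, so doublets may remain among the nuclei kept. The 151264 nuclei were clustered on 2000 variable genes and 15 components with 20 neighbours (Leiden, resolution 0.9, after Harmony integration; python-igraph 0.11.9, scikit-learn 1.9.0) into 37 clusters. They were named from the 14 marker lists less that of thermogenic genes, and 36551 nuclei stayed unnamed. For each cell type, the counts of a mouse were added up over 26692 genes found in at least 10 nuclei, mitochondrial genes left out, for mice with at least 10 nuclei.

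The sums were tested with edgeR 4.0.16 (R 4.3.3; TMM, filterByExpr, robust quasi-likelihood F-test), WT against Taz-KO in each cell type, and between cell types with a mouse term and an interaction. P-values were adjusted by Benjamini-Hochberg over all genes tested, and passed below 0.05. The code was tested on simulated counts. DESeq2 1.42.0 and the other alternatives are in the closing section. Since the labels name 1 sample per mouse, p-values measure the spread between mice. All 10 members were named, with Taz, at most 5 genes of the wider list per cell type by size of change among those that passed (exceptions are named as such), Insig1, and the 5 genes most like Acly. The members and lists were chosen with earlier results of these data known.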

Additional observations from a re-analysis of the deposited data

Results flagged for a closer look

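In 3 of the 70 groups of 4 mice examined, 1 mouse lay far from the other 3, where chance gives about 1 in 20, or 3.5 groups. Thrsp was at 55.2 CPM in the adipocytes of WT 5355, below the other WT mice. Acaca was at 38.6 CPM in the cardiomyocytes of WT 5355, again below the other WT mice, and Me1 at 62.0 CPM in those of WT 4686.

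Among the 10 members and 3 other cell types, the genotype effect differed from that in adipocytes for 19 combinations, all toward a higher effect in adipocytes. The shares of all genes with a higher effect in adipocytes were 3.73, 1.04 and 1.05% against cardiomyocytes, fibroblasts and endothelial cells. Without the mouse term, 3 members passed against cardiomyocytes and 0 against fibroblasts and against endothelial cells. Against cardiomyocytes the differences on the log2 scale were 3.13 for Acly, 1.92 for Acaca, 1.75 for Elovl6, 1.84 for Scd2, 2.23 for Me1, 2.55 for Mlxipl and 1.87 for Thrsp. Against fibroblasts they were 3.29 for Acly, 2.21 for Acaca, 2.60 for Elovl6, 1.66 for Scd2, 2.20 for Me1 and 1.91 for Mlxipl. Against endothelial cells they were 3.25 for Acly, 2.09 for Acaca, 2.20 for Elovl6, 1.70 for Scd2, 2.34 for Me1 and 1.84 for Mlxipl. The 3 comparisons share the adipocyte sums, in which Scd2 had 3 UMIs in WT 5356 and 4 UMIs in Taz-KO 5301. The rise of Acly and Elovl6 in adipocytes was known when the members were chosen, so these counts are not independent of that choice.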

How the results depend on the processing

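The count of 9 members higher in adipocytes was 5 with doublets kept, 4 in nuclei with both defining markers and 1 with mice of at least 1 nucleus, and 1 to 9 with 1 mouse left out. The 5 members apart by their ratio to the adipocyte markers were 3 with Pparg left out of that sum. Higher effects in adipocytes numbered 3, 0 and 0 with no mouse term against cardiomyocytes, fibroblasts and endothelial cells, 10 against fibroblasts and 10 against endothelial cells with no filter on low counts, and 4 to 8, 1 to 5 and 0 to 8 with 1 mouse left out. The share of all genes is not given for the fits with no mouse term or with 1 mouse left out. The cause of these changes in count was not tested. No paired analysis was possible because the genotypes share no replicate numbers. Leaving out both small libraries, the larger ambient share, adipocytes without Ucp1 UMIs, the largest cardiomyocyte cluster alone and the marker sum without Pparg were chosen after seeing the data. Of log2 fold changes under the alternatives that keep all mice or drop both small libraries, 361 kept direction and call, 27 lost the call and 28 changed sign. With 1 mouse left out these numbers were 257, 20 and 33. Most of these values were not calls in the tests reported, so most had no call to lose. Mlxipl in cardiomyocytes kept its call in all alternatives, so every lost call was of a member in adipocytes. Subtracting 20% ambient RNA gave -0.017 for Acaca, -0.014 for Me1, -0.025 for Thrsp and 0.70 for Mlxipl in fibroblasts, -0.010 for Acly in endothelial cells and -0.071 for Fasn in cardiomyocytes, and 40% gave -0.076, -0.049 and -0.044 for Acaca, Me1 and Thrsp in fibroblasts, -0.00369 for Acaca and -0.084 for Acly in endothelial cells and -0.93 for Fasn in cardiomyocytes. Without Taz-KO 4685 and 5301, Acaca was at -0.11 and Acly at 0.080 in fibroblasts, Me1 at 0.18 and Thrsp at 0.18 in endothelial cells, and Scd1 at 0.50 and Thrsp at 0.13 in cardiomyocytes. In fibroblasts Me1 was at -0.00222 and Thrsp at -0.076 with DESeq2, Me1 at -0.00977 with doublets kept, Me1 at -0.019 and Thrsp at -0.00187 with no filter, and Me1 at -0.086 with both markers, where Srebf1 was at -0.019 in endothelial cells. In cardiomyocytes Scd1 was at 0.051 with doublets kept and 0.096 in the largest cluster, and Thrsp at 0.00499 there. With 1 mouse left out, signs changed in fibroblasts for Acaca (-0.093 to 0.15), Acly (-0.23 to 0.00970), Elovl6 (-0.16 to 0.15), Me1 (-0.066 to 0.062), Scd1 (-0.32 to 0.45), Scd2 (-0.11 to 0.27) and Thrsp (-0.32 to 0.30), in endothelial cells for Acaca (-0.00381 to 0.21), Acly (-0.025 to 0.14), Me1 (-0.18 to 0.14), Scd1 (-0.042 to 0.67), Scd2 (-0.10 to 0.65), Srebf1 (-0.039 to 0.18) and Thrsp (-0.49 to 0.021), and in cardiomyocytes for Fasn (-0.012 to 0.51), Scd1 (-0.62 to 0.20) and Scd2 (-0.47 to 0.043). None of these reversed values was a call in the tests reported. The adipocyte sums rest on few nuclei, 20 in Taz-KO 5301, and the effect of that number on the calls was not tested.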
